A study of Mus musculus with 8 samples.

Results

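The genes described are those of the mitochondrial ribosomal proteins, in brown adipose tissue of mice with a brown-fat deletion of the glucocorticoid receptor gene. Membership went by symbol alone: every probe set whose symbol is Mrpl or Mrps followed by a number. This gave 76 of 21115 probe sets, 48 of the large subunit (Mrpl) and 28 of the small subunit (Mrps). The family itself was chosen with earlier results of these data known. RNA of brown adipose tissue from 8 mice was hybridised to Affymetrix Mouse Gene 1.1 ST arrays, 1 array per mouse. The 4 GRBATKO mice carried a brown-fat deletion of the glucocorticoid receptor gene; the other 4 are called wild type in the sample labels and Flox controls in the series' design text. All 8 mice were between 16 and 20 weeks old when they entered the cold and all were kept at 5 °C for 1 week, so no group at room temperature or thermoneutrality was analysed here. The sources used here give neither the Cre driver nor the cells it is active in. Mice are numbered but not described as separate collections, so the p-values below speak only to the variation among these 8 arrays, part of which may be technical.

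Mitochondria carry their own ribosome, which translates the few membrane proteins of the respiratory chain and ATP synthase that are encoded in mitochondrial DNA. Its proteins are encoded in the nucleus, made in the cytosol and imported, and they assemble on ribosomal RNA transcribed inside the organelle. Some descend from bacterial ribosomal proteins and others were added during mitochondrial evolution. Brown fat is among the tissues richest in mitochondria, and its heat production through the uncoupling protein Ucp1 depends on a working respiratory chain. The transcripts that this ribosome itself translates had no named probe set in the table.

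Values below are log2 intensities unless stated otherwise. Array medians lay between 4.42 and 4.44. Nr3c1, the targeted receptor gene, was 8.51 to 8.68 in the controls and 7.61 to 7.83 in the GRBATKO mice, so its level matched all 8 labels (the sources do not say where its probes lie relative to the deleted exons). The ratio of GRBATKO to control was 0.55, so part of its signal remained in the tissue. The extraction protocol names peritoneal macrophages, but Ucp1 ranked 1 or 2 on every array and differed by 0.012 (SE 0.063) between genotypes. Gata6, a defining gene of peritoneal macrophages, lay between 3.996 and 4.83, near the array medians. Among the other listed markers of those cells, Icam2 (6.09 to 6.46) and Prg4 (4.65 to 5.40) lay above the array medians on every array. Alox15, Selp and Timd4 lay below them. Controls 1 and 4 stood apart from the other 6 arrays, with 25th percentiles of 3.03 and 3.05 against 2.84 to 2.90. All control arrays lay in plate rows A and B and all GRBATKO arrays in rows C and D, so genotype and plate row cannot be told apart. In bulk tissue, fewer cells of a type and less RNA per cell cannot be told apart either.

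No gene of the mitochondrial ribosome passed the test. Of the 48 large-subunit genes 35 had a higher mean in the GRBATKO mice and 13 a lower one, with a median log2 difference (GRBATKO minus control) of 0.071; of the 28 small-subunit genes 24 were higher and 4 lower, with a median of 0.073. Over all 21115 probe sets 49.4% had a higher mean in GRBATKO and the median difference was -0.0022. Among the 10558 probe sets above the median level, which hold 75 of the 76 genes, 62.7% had a higher mean and the median difference was 0.036. In limma's moderated test across all probe sets, with Benjamini-Hochberg adjustment over all of them, 5 probe sets (0.0237%) passed an adjusted p of 0.05, 1 higher (0.00474%) and 4 lower (0.0189%), and the smallest adjusted p among the 76 genes was 0.355. At an unadjusted p under 0.05 there were 3 genes of the large and 4 of the small subunit, all 7 higher in GRBATKO, or 9.21% of the 76, beside 4.22% of all probe sets on the higher side, 4.4% on the lower and 8.62% on either; among those above the median level the share on the higher side was 6.71%. Groups did not overlap in 7 genes, 6 with GRBATKO above and 1 below, which is 9.21% of the 76 beside 5.64% of all probe sets (3.22% above, 2.42% below) and 7.54% of those above the median level.

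The differences were small and mostly well bounded. Of the 76 genes 68 differed by less than 0.2 in either direction, 7 were higher by more than that and 1, Mrps33, was lower by more. The 95% confidence interval of the difference lay within a 1.5-fold change either way for 73 of the 76; the exceptions were Mrpl27, Mrps26 and Mrps33. A gene that misses the threshold is thus not shown to be equal between genotypes, but for those 73 a change of more than 1.5-fold lies outside the interval.

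**Figure D1:**
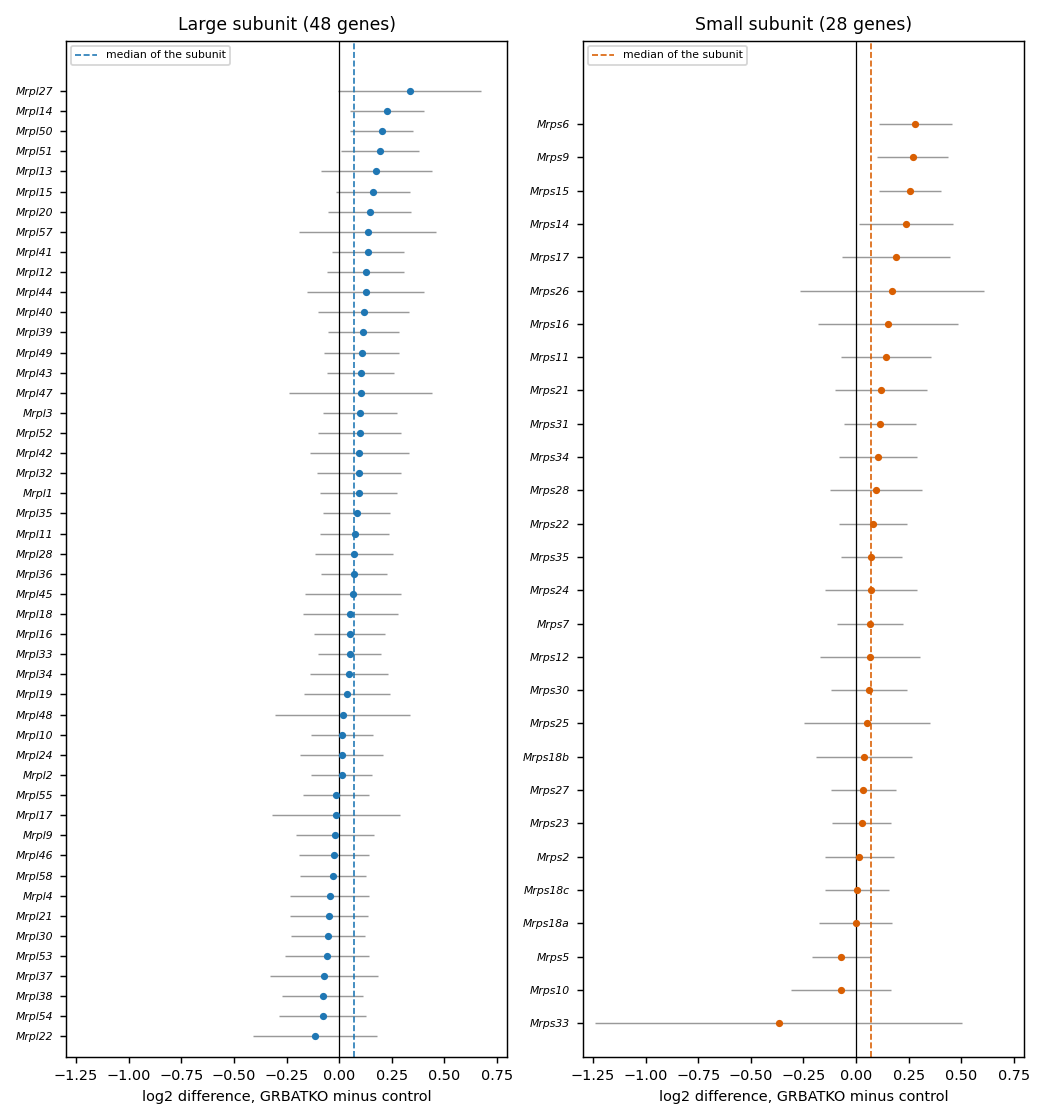
Log2 difference between GRBATKO and control (x axis) for every measured gene of the large subunit (left) and the small subunit (right), ordered by difference. Points are limma estimates from 4 mice per group, bars their 95% confidence intervals, and the dashed line is the median of the subunit, 0.071 and 0.073. Most intervals cross 0, and the small-subunit genes Mrps15, Mrps6 and Mrps9 lie farthest to the right relative to their intervals.

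Both subunits were also averaged on each array, as controls 1 and 4 had a narrower spread of intensities. Averaged over the 48 large-subunit genes, each taken as the deviation from its mean over all 8 arrays, the log2 values were -0.089, 0.066, 0.0076 and -0.11 in controls 1 to 4 and 0.020, 0.042, -0.0018 and 0.065 in GRBATKO mice 1 to 4. For the 28 small-subunit genes they were -0.090, -0.0056, 0.0073 and -0.070 in the controls and 0.025, 0.093, -0.00021 and 0.039 in the GRBATKO mice. In both subunits controls 1 and 4 were lowest, and controls 2 and 3 lay within or close to the range of the GRBATKO mice. The same 2 arrays were also low across brighter probe sets in general: over the 10558 probe sets above the median level, among which were 75 of the 76 genes, the mean deviation was -0.073 in control 1 and -0.053 in control 4 against 0.012 to 0.044 in the other 6 arrays. Control 1 or 4 held the lowest of all 8 values in 60.5% of the 76 genes, in 50.05% of those brighter probe sets and in 30.7% of all probe sets.

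Without controls 1 and 4, an alternative added after the data were seen, 23 large-subunit genes (47.9%) were higher and 25 lower with a median of -0.0017. These 2 controls had the lowest averages in both subunits, so leaving them out had to lower the mean differences. With the 2 left out, 20 small-subunit genes (71.4%) were higher and 8 lower, with a median of 0.030. Without control 4 alone the large-subunit median was 0.026. The brighter probe sets had a median difference of 0.036 with all arrays and of -0.0087 without these 2, when 47.3% of them were higher. Quantile normalization applied again to the log2 values, which gives all arrays the same spread, left medians of 0.043 for the large and 0.044 for the small subunit and 0.0043 for the brighter probe sets. Whether the spread of these 2 arrays accounts for the higher means was not tested.

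**Figure D2:**
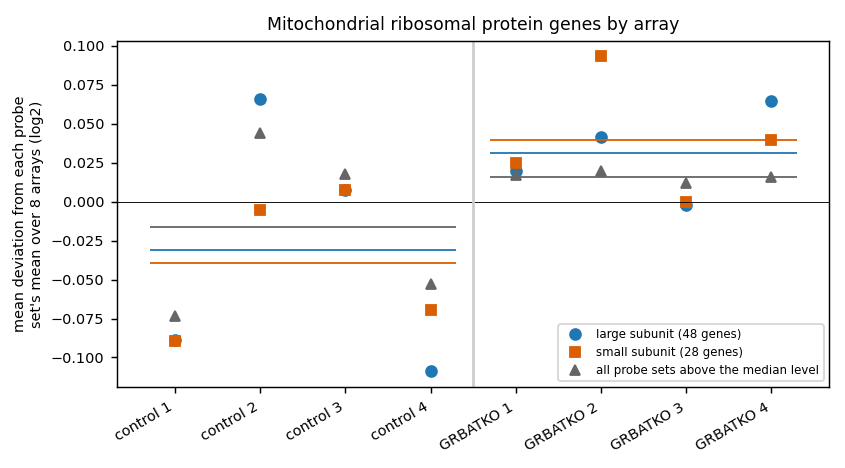
Mean deviation from each probe set's mean over the 8 arrays (y axis, log2) for the large subunit, the small subunit and all probe sets above the median level, in each of the 4 control and 4 GRBATKO mice (x axis); horizontal lines are group means. Controls 1 and 4 sit below 0 for all 3 sets, at -0.089 and -0.11 for the large subunit, and the other 6 arrays lie at or above -0.0056.

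Small-subunit genes gave the smallest p-values of the family. Mrps15 (NCBI gene number 66407, chromosome 4) encodes the counterpart of bacterial S15, a protein that binds ribosomal RNA in the body of the subunit. Its log2 intensity was 9.63, 9.72, 9.62 and 9.58 in controls 1 to 4 and 9.87, 9.95, 9.86 and 9.90 in GRBATKO mice 1 to 4. Every GRBATKO mouse lay above every control. The difference was 0.26 (SE 0.066), a ratio of 1.19, with an adjusted p of 0.355 by limma.

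Mrps6 (gene number 121022, chromosome 16), the counterpart of bacterial S6, was 9.33, 9.23, 9.23 and 9.08 in the controls and 9.48, 9.54, 9.55 and 9.43 in the GRBATKO mice. The groups did not overlap, control 4 was the lowest mouse, and the difference was 0.28 (SE 0.077, adjusted p = 0.393 by limma). Mrps9 (gene number 69527, chromosome 1) encodes a protein of the head of the subunit, where the bacterial S9 reaches toward the peptidyl-site tRNA. Its values were 7.38, 7.20, 7.27 and 7.37 in the controls and 7.62, 7.46, 7.62 and 7.60 in the GRBATKO mice. Here controls 1 and 4 were the highest controls, unlike in most of the family, and the groups did not overlap. The difference was 0.27 (SE 0.075, adjusted p = 0.402 by limma).

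Without controls 1 and 4 these 3 genes differed by 0.23, 0.27 and 0.34, and after repeated quantile normalization by 0.24, 0.27 and 0.24, in the order Mrps15, Mrps6 and Mrps9. None passed in either setting, and the lowest adjusted p that any named gene of the family reached in any of the 22 settings was 0.0778, for Mrps15 with an intensity trend in limma's variance prior. In that setting 30 probe sets (0.142%) passed. The share of all probe sets passing was 0.0379% after repeated quantile normalization, 0.0284% with array weights and with median centring, 0.00474% with the ordinary t statistic and with the replicate block, 0.111% without dim and 0.184% without flat probe sets. It was 0.0142% without controls 1 and 4 and also without GRBATKO 2, and 0.00947% without control 3 and GRBATKO 4; no gene of the family passed in any of these.

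Mrps14 (gene number 64659, chromosome 1), another protein of the head with a bacterial counterpart, was 6.13, 6.38, 6.19 and 5.98 in the controls and 6.31, 6.43, 6.55 and 6.34 in the GRBATKO mice. The groups overlapped through control 2, and the difference of 0.24 (SE 0.099, unadjusted p = 0.0395, adjusted p = 0.563 by limma) was 0.12 without controls 1 and 4. Mrps17, with a bacterial counterpart, and Mrps31, a mitochondrial addition in the head, differed by 0.19 (SE 0.11) and 0.11 (SE 0.076), with overlapping groups.

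Only 4 small-subunit genes had a lower mean in the GRBATKO mice, and none of them reached an unadjusted p of 0.05. Mrps5 (gene number 77721, chromosome 2), the counterpart of bacterial S5 near the entry of the mRNA channel, was 8.58, 8.58, 8.52 and 8.55 in the controls and 8.51, 8.50, 8.45 and 8.49 in the GRBATKO mice. Its groups were narrow and did not overlap, GRBATKO 1 lying just below control 3, and the difference was -0.071 (SE 0.062, adjusted p = 0.773 by limma). Mrps10 differed by -0.071 (SE 0.11) with overlapping groups. Mrps33, a protein of the head, had the lowest level of the family, 2.78 to 4.54, below 60% of all probe sets, and spread over 1.76 log2 units; its difference of -0.37 (SE 0.39) had a 95% interval of -1.24 to 0.50. Without control 3 and GRBATKO 4, the mice highest in skeletal muscle markers, the Mrps33 difference was 0.029.

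**Figure D3:**
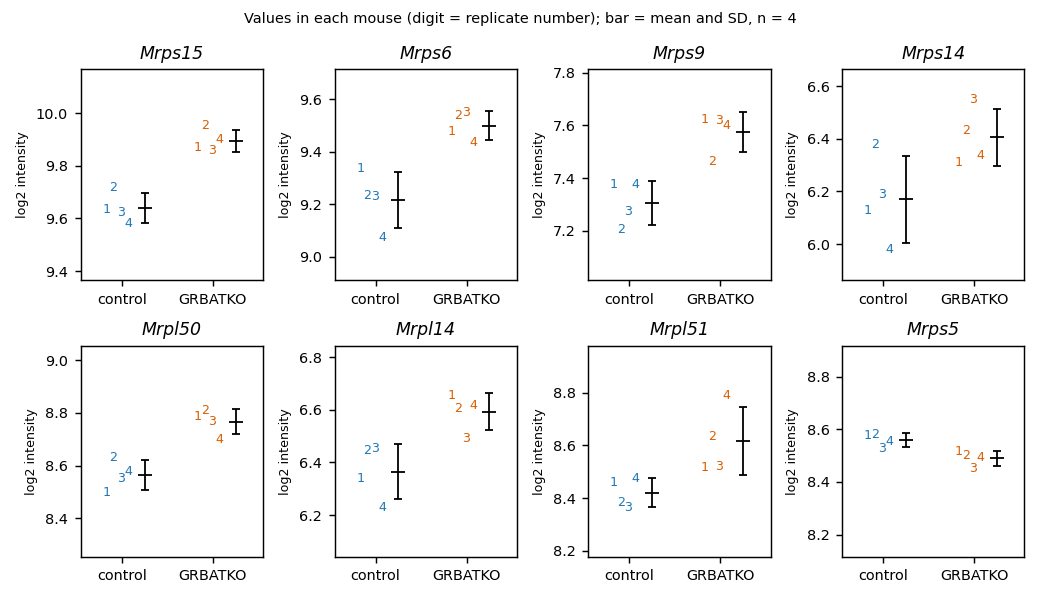
Log2 intensity (y axis, each panel spanning 0.8 units) of 8 genes in each mouse; digits are replicate numbers, and bars give the mean and SD of 4 mice. Mrps15, Mrps6, Mrps9, Mrpl50, Mrpl14 and Mrpl51 lie higher in every GRBATKO mouse than in every control, Mrps14 overlaps, and Mrps5 lies slightly lower.

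In the large subunit, Mrpl50 (gene number 28028, chromosome 4), a mitochondrial addition with no bacterial counterpart, had the smallest p. It was 8.50, 8.63, 8.55 and 8.58 in the controls and 8.79, 8.81, 8.77 and 8.70 in the GRBATKO mice. The groups did not overlap, and the difference was 0.20 (SE 0.067, adjusted p = 0.491 by limma). Mrpl14 (gene number 68463, chromosome 17), the counterpart of bacterial L14 at the interface with the small subunit, was 6.34, 6.44, 6.45 and 6.23 in the controls and 6.66, 6.60, 6.49 and 6.62 in the GRBATKO mice. GRBATKO 3 lay just above controls 2 and 3, and the difference of 0.23 (SE 0.078, adjusted p = 0.509 by limma) was 0.15 without controls 1 and 4.

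Mrpl51 (gene number 66493, chromosome 6), also a mitochondrial addition, was 8.46, 8.38, 8.36 and 8.48 in the controls and 8.52, 8.63, 8.52 and 8.79 in the GRBATKO mice. The groups did not overlap and GRBATKO 4 was highest. The difference was 0.20 (SE 0.082, adjusted p = 0.563 by limma), and 0.24 without controls 1 and 4. Mrpl27 (gene number 94064, chromosome 11), whose bacterial counterpart reaches the peptidyl transferase centre, had the largest upward difference of the family, 0.33 (SE 0.15), and a wide spread. Its values were 6.93, 7.43, 7.21 and 6.84 in the controls and 7.24, 7.52, 7.71 and 7.28 in the GRBATKO mice. The groups overlapped, and without controls 1 and 4 the difference was 0.12. Mrpl15, the counterpart of bacterial L15, and Mrpl41, a mitochondrial addition, differed by 0.16 (SE 0.079) and 0.14 (SE 0.076).

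On the lower side the large-subunit genes of smallest p were all far from the threshold, and all their groups overlapped. Mrpl38 of the central protuberance, the mitochondrial additions Mrpl54, Mrpl53 and Mrpl37, Mrpl30, with a bacterial counterpart, and Mrpl22, whose bacterial counterpart lines the exit tunnel, differed by -0.052 (Mrpl30) to -0.11 (Mrpl22), with unadjusted p from 0.386 to 0.535. Mrpl37 was 8.97 and 8.93 in controls 2 and 3 and 8.56 in both control 1 and control 4, against 8.56 to 8.78 in the GRBATKO mice. Without controls 1 and 4 it was 1 of 2 large-subunit genes lower at an unadjusted p under 0.05 by limma. The other was Mrpl17 of the tunnel exit, and neither passed after adjustment. For both genes controls 1 and 4 were the lowest controls, so leaving them out had to lower the difference and narrow the controls. These 2 unadjusted results therefore cannot show a lower level in GRBATKO. The share of all probe sets lower at that p in this setting was not computed.

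By position in the ribosome, no group of proteins held a gene that passed. The stalk proteins Mrpl10, Mrpl11 and Mrpl12, of which Mrpl12 is the counterpart of the bacterial L12 that recruits translation factors, differed by 0.015 (SE 0.066), 0.073 (SE 0.073) and 0.13 (SE 0.081). Mrpl12 was 8.89 to 9.20 in the controls, lowest in control 4, and 9.15 to 9.24 in the GRBATKO mice. The 6 measured genes of the central protuberance had a median difference of 0.034, the 5 of the tunnel exit 0.012 and the 7 of the small-subunit head 0.073. The 47 genes with a bacterial counterpart had a median of 0.070 and the 29 mitochondrial additions 0.080; the difference between these sets was not tested.

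The S18 paralogs differed little. Mammals have 3 proteins related to bacterial S18, of which Mrps18a sits in the large subunit despite its name. Mrps18a, Mrps18b and Mrps18c differed by -0.0025 (SE 0.076), 0.039 (SE 0.10) and 0.0028 (SE 0.068), with 95% intervals inside -0.19 to 0.27. Mrps18c ran from 8.09 to 8.15 in the controls and from 8.05 to 8.18 in the GRBATKO mice. Mrps30, also a large-subunit protein by place, differed by 0.060 (SE 0.080). Counting Mrps18a and Mrps30 with the large subunit gave medians of 0.068 for 50 large and 0.076 for 26 small-subunit genes. Mrpl23 and Mrps36 had no probe set under those symbols and were not analysed here.

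Among themselves the genes varied little across mice. The range over all 8 arrays had a median of 0.32 log2 units in the large subunit, from 0.10 for Mrpl2 to 0.87 for Mrpl27, and of 0.37 in the small subunit, from 0.096 for Mrps23 to 1.76 for Mrps33. After Mrpl27, the widest in the large subunit were Mrpl47 at the tunnel exit and the mitochondrial addition Mrpl57, both lowest in control 4 (7.23 and 5.77). In the small subunit Mrps26 and Mrps25, both mitochondrial additions, followed Mrps33. Mrps26 was 5.59 to 6.21 in the controls and 5.77 to 6.52 in the GRBATKO mice, highest in GRBATKO 1 and 3, and Mrps25 was lowest in control 4 (6.06). The SD was smaller among GRBATKO mice than among controls for 51 of the 76 genes, with medians of 0.076 and 0.104. Over all probe sets the median SD was also smaller in GRBATKO, 0.128 against 0.153, and above the median level 0.103 against 0.129.

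Covariation within groups was then described. Taking each gene's deviations from its group means over the 8 arrays, the median correlation between gene pairs was 0.27 in the large subunit, 0.019 in the small subunit and 0.13 between the subunits. It was 0.051 over all pairs of probe sets above the 40th percentile of level and 0.001 over all probe sets. Neither background was matched to the family in level. Among nuclear genes of the respiratory chain and ATP synthase the median was 0.092, and among cytosolic ribosomal protein genes -0.014. These are descriptions over genes that share the same 8 arrays, including the 2 of narrower spread, and were not tested. Mrpl37 and Mrpl18 followed the mean of the other genes most closely (r = 0.98 and 0.91 over 8 arrays), whereas Mrps9, Mrps23 and Mrps31 ran against it (r = -0.86, -0.74 and -0.69).

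The promoters of the family were compared for motifs of known regulators of mitochondrial genes. Promoters here are RefSeq sequences of build GRCm38.p6 from 250 bases before to 50 bases after the transcript start, found for 67 of the 76 genes and for 16042 measured genes in all. A core of the NRF1 site (CGCATGCG) was present in 7 of the 67 (10.4%) and 2.95% of all, an ETS site bound by GABP (CCGGAAGT) in 12 (17.9%) and 5.997%, and a YY1 site (AAGATGGC) in 12 (17.9%) and 3.76%, counted on both strands. No 2 of these 3 motifs overlapped in a promoter of the family, and 29 of the 67 (43.3%) held at least 1 of them beside 11.9% of all. The full palindromic glucocorticoid response element was in none of the 67 and in 2 of the 16042, and its inner core ACANNNTGT in 2 (2.99%), Mrpl34 and Mrpl45, and 6.73% of all. A match is only a match of letters, and an absent motif says nothing of binding elsewhere.

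The 250 bases before the start are shown to place these matches, for the 2 genes of smallest p in each subunit that hold an NRF1, ETS or YY1 match there, have a single listed start and have no other listed start in the window; capitals mark the match. The Mrpl51 window is chr6:125191950-125192199, plus strand, with an ETS match 90 bases before the start, and that of Mrpl39 is chr16:84735245-84735494, minus strand, with an NRF1 match 124 bases before it. The Mrps22 window is chr9:98601680-98601929, minus strand, with an ETS match 11 bases before the start, and that of Mrps18b is chr17:35916441-35916690, minus strand, with an NRF1 match 224 bases before it.
Mrpl51: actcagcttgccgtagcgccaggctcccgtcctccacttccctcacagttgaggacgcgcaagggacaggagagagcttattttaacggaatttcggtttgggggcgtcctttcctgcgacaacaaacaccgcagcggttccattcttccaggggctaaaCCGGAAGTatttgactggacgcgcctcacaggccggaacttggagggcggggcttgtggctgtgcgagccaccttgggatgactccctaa
Mrpl39: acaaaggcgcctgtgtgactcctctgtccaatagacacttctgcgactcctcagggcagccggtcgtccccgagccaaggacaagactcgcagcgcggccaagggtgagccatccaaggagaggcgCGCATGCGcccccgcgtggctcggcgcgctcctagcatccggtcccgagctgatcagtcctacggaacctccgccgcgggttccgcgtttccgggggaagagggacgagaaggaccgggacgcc
Mrps22: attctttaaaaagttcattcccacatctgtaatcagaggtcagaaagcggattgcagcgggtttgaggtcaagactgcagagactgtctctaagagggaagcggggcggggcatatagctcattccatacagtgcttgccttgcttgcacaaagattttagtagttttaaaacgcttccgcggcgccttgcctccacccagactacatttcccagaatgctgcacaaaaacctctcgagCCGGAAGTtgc
Mrps18b: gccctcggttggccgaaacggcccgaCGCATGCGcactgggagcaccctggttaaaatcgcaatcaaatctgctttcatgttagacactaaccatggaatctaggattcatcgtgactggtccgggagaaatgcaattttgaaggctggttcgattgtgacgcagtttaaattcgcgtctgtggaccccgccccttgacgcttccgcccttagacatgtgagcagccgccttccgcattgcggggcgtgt
Of the genes shown, Mrpl39 and Mrps22 differed by 0.11 (SE 0.075) and 0.080 (SE 0.072). Genes with an ETS match had a median difference of 0.088 and those without one 0.070; for YY1 these were 0.071 and 0.073, and for NRF1 0.015 (7 genes) and 0.073.

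Shared start regions were examined next. In 26 of the 67 genes (38.8%) another gene started within 1000 bases on the opposite strand, pointing away, beside 14.1% of all measured genes. One pair joins the subunits: Mrps11 and Mrpl46 start 42 bases apart, so the bases before one gene lie largely inside the other. Mrps11 was 5.84 to 5.96 in the controls and 5.81 to 6.23 in the GRBATKO mice (difference 0.14, SE 0.096), while Mrpl46 differed by -0.024 (SE 0.074). Other partners also serve mitochondria. Mrps12, of the decoding centre, lies opposite Sars2, the mitochondrial seryl-tRNA synthetase (0.065, SE 0.11, against -0.079, SE 0.10). Mrpl43 lies opposite Twnk, the mitochondrial DNA helicase (0.10, SE 0.071, against 0.16, SE 0.085), and Mrpl47 opposite Ndufb5, a subunit of complex I (0.10, SE 0.15, against 0.021, SE 0.067). Of 24 genes with a measured partner, 11 differed in sign from it. These form 23 distinct pairs, as Mrps11 and Mrpl46, which differed in sign, are counted from both sides. The partner with the smallest p was Ska3, a kinetochore gene opposite Mrpl57, at -0.33 (SE 0.14), and no partner passed.

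**Figure D4:**
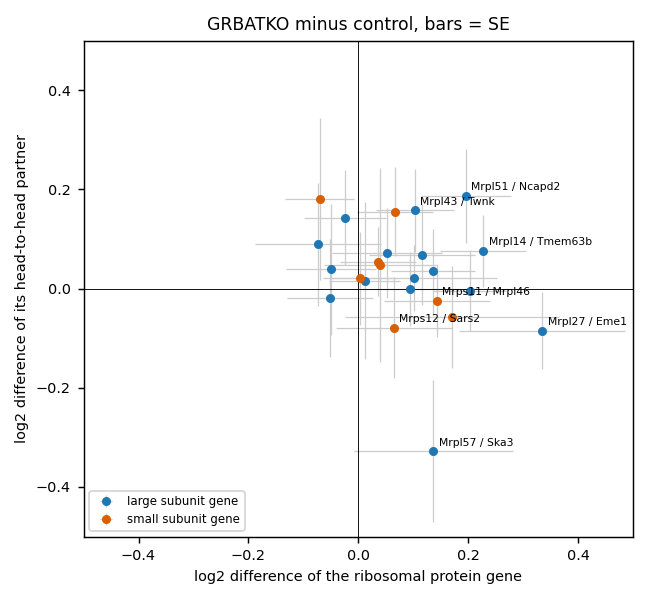
Log2 difference of each gene of the family (x axis) against that of its measured head-to-head partner (y axis), with standard errors; the pair of Mrps11 and Mrpl46 appears once from each side. Partners lie on both sides of 0 for genes that were higher, with Mrpl51 and Ncapd2 both higher and Mrpl57 and Ska3 on opposite sides.

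Genes that build, load or supply the mitochondrial ribosome were examined from lists, and no member of any passed the test (0.0237% of all probe sets did). For the counts below, 49.4% of all probe sets and 62.7% of those above the median level had a higher mean in GRBATKO. Of 12 translation factors 9 had a higher mean in GRBATKO (median 0.034). Their averaged deviation was -0.086 and -0.149 in controls 1 and 4. In control 2 it was 0.106, above every GRBATKO mouse (-0.0079 to 0.071). Mtif3, the initiation factor that acts on the small subunit, was 6.76, 6.82, 6.67 and 6.72 in the controls and 6.94, 7.25, 7.07 and 7.08 in the GRBATKO mice. Its groups did not overlap, and the difference of 0.35 (SE 0.082, unadjusted p = 0.00205, adjusted p = 0.309 by limma) was larger than any upward difference among the 76 genes. Mtfmt, which formylates the initiator tRNA, differed by 0.16 (SE 0.079).

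Of 23 assembly and rRNA modification genes 20 were higher (median 0.066), with Mterf4, which recruits an rRNA methyltransferase to the large subunit, at 0.28 (SE 0.11) and Mettl15, an rRNA methyltransferase of the small subunit, at 0.20 (SE 0.13). The averaged deviation of this list was -0.142 and -0.145 in controls 1 and 4. In control 2 it was 0.118, above every GRBATKO mouse (0.013 to 0.054). Of 12 genes of mitochondrial DNA and transcription 9 were higher (median 0.065). Tfam, which packages mitochondrial DNA and starts its transcription, was 6.20, 6.48, 6.35 and 6.37 in the controls and 6.59, 6.56, 6.55 and 6.60 in the GRBATKO mice. Every GRBATKO mouse lay above every control, with a difference of 0.22 (SE 0.076, adjusted p = 0.502 by limma); Twnk had the next smallest p. Of 17 mitochondrial aminoacyl-tRNA synthetases 12 were higher (median 0.035), with the arginyl enzyme Rars2 at 0.17 (SE 0.075) and the tyrosyl enzyme Yars2 at 0.14 (SE 0.079).

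In the remaining lists about as many genes were lower as higher. Of 9 regulators of mitochondrial biogenesis 4 were higher (median -0.052). Myc and the coactivator Pprc1 differed by -0.17 (SE 0.11) and -0.21 (SE 0.13), and Ppargc1a, the coactivator induced by cold in brown fat, by 0.075 (SE 0.26), and was highest in control 3 (9.68; controls 1, 2 and 4 ran from 8.64 to 8.89). Of 11 mitochondrial proteases and chaperones 5 were higher (median -0.027), with Spg7, a subunit of an inner-membrane protease, at 0.18 (SE 0.095) and Clpx, the unfoldase of the matrix Clp protease, at -0.18 (SE 0.098). The list of mitochondrial ribosome proteins with other symbols had 5 measured genes, with a median of -0.022. It includes Dap3 (0.074, SE 0.089) and Ptcd3 (-0.041, SE 0.082) of the small subunit. It also holds Oxa1l (-0.032, SE 0.098), an inner-membrane insertase rather than a ribosomal protein.

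The other ribosome and the respiratory chain were measured in the same fit. The 35 named cytosolic ribosomal protein genes had a median difference of 0.039, with 22 higher, and the 73 nuclear genes of the respiratory chain and ATP synthase had a median of 0.0026, with 39 higher. No member of either set passed. At an unadjusted p under 0.05 there were 2 of the 35 (5.71%) and 0 of the 73. The share was 8.62% of all probe sets and 9.44% of those above the median level. The averaged deviation of the respiratory chain genes was -0.021 in control 1 and 0.024 in control 4, and lowest in GRBATKO 3 at -0.041. Whether the sets differ from each other was not tested.

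Markers of other cells were set beside these values. The 12 skeletal muscle markers were highest in control 3 (averaged deviation 2.73) and GRBATKO 4 (1.24), while the remaining 6 mice ran from -0.91 to -0.062, and 11 of the 12 were lower in GRBATKO, with Myoz1 at -0.74 (SE 0.50). Mb, the myoglobin gene, did not follow those 2 mice: it was highest in control 2 (8.83), its groups did not overlap, and it differed by -1.44 (SE 0.32, unadjusted p = 0.00147, adjusted p = 0.278 by limma). Without those 2 mice the medians were 0.064 for the large and 0.070 for the small subunit. The 9 lymphocyte markers were highest in GRBATKO 2, at 1.14 against -0.27 to 0.059 elsewhere, with Cd79b at 0.44 (SE 0.39) and Cd3g at 0.42 (SE 0.38) having the smallest p; GRBATKO 2 also held the highest small-subunit mean, and without it the small-subunit median was 0.069. The averaged deviations ran from -0.43 to 0.39 for 10 macrophage markers and from -0.13 to 0.19 for 6 peritoneal macrophage markers, with 6 of 10 and 4 of 6 higher in GRBATKO, and the smallest p in Csf1r (-0.11, SE 0.14) and C1qa (-0.094, SE 0.20) and in Prg4 (0.28, SE 0.15) and Gata6 (0.20, SE 0.16). Of 11 brown adipocyte markers 6 were higher, with Dio2 at -0.53 (SE 0.21) and Elovl3 at 0.12 (SE 0.079).

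**Figure D5:**
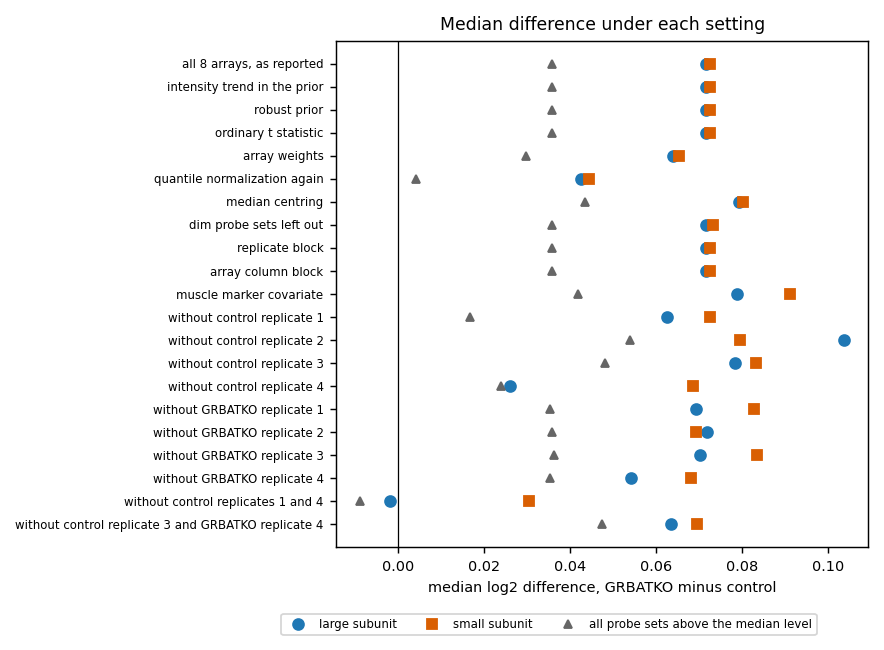
Median log2 difference, GRBATKO minus control (x axis), of the large subunit, the small subunit and all probe sets above the median level, under the reported setting and each alternative (y axis), apart from the filter on flat probe sets. The large-subunit median falls from 0.071 to -0.0017 and the small-subunit median from 0.073 to 0.030 when controls 1 and 4 are left out.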

How the data were processed

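The deposited table holds 1 linear intensity per probe set and array, made by RMA (background correction, quantile normalization and probe summary) per the submitters' processing notes; no version, build or probe map is given there. That the intensities had been returned from log2 to a linear scale was read from the values (2.07 to 9168), and log2 was taken again. Probe sets were named by the platform annotation, which gave 20405 of 21115 a symbol; all 76 gene numbers of the family were found in RefSeq GRCm38.p6. No detection call was used, so the distance of a low value from background is unknown, and precision is limited by having 4 arrays a group.

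The 4 GRBATKO and 4 control arrays entered a linear model in limma 3.58.1 (R 4.3.3; eBayes with neither trend nor robust prior) fitted to every probe set without a filter. Of the 76 genes 75 passed a filter at the 40th percentile of level and 9 a filter on interquartile range (0.25). The fit was tested on simulated data. Level here is the mean log2 intensity over 8 arrays. No list was given a test.

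The genes and lists were chosen with earlier results of these data known. Named were, per subunit, the 6 genes of smallest p in each direction (the small subunit had 4 lower), the 3 of widest range, Mrpl12, the S18 paralogs and Mrps30, and the 2 genes of smallest p of each list. Mrpl2, Mrpl10, Mrpl11, Mrpl17, Mrpl18, Mrpl34, Mrpl45, Mrpl39, Mrpl43, Mrpl46, Mrps11, Mrps12, Mrps22, Mrps23 and the head-to-head partners were named after their values were seen. The replicate numbers did not pair the arrays: deviations of same-numbered arrays correlated at -0.056 to 0.092. Promoter sequences of opposite-strand neighbours were checked as reverse complements in 1672 of 1672 overlaps. Figures were drawn with matplotlib 3.10.9.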

Additional observations from a re-analysis of the deposited data

Results flagged for a closer look

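Among 64 groups of 4 values (30 named genes and both subunit means, in each genotype) 2 held a mouse far from the other 3, where chance alone flags about 1 group in 20. Mrps9 was 7.46 in GRBATKO 2 against 7.60 to 7.62 in the other GRBATKO mice, and Mrpl54, a mitochondrial addition to the large subunit, was 7.88 in GRBATKO 3 against 8.02 to 8.05.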

How the results depend on the processing

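No gene of either subunit passed an adjusted p of 0.05 in any of the 22 settings, and of 30 named genes 21 kept their direction in all of them. Probe sets passing numbered 5 in the reported fit, 30 with an intensity trend, 1 with the ordinary t statistic, 8 after repeated quantile normalization, 14 without dim and 10 without flat probe sets, 1 with the replicate block, 3 without controls 1 and 4, 2 without control 3 and GRBATKO 4, and 3 to 5 with 1 array left out. The replicate numbers did not pair the arrays, and in this balanced design the replicate block cannot change a difference, only its error. The large-subunit median was -0.0017 without controls 1 and 4, -0.029 without flat probe sets (4 genes left) and 0.026 to 0.10 with 1 array left out, lowest without control 4. The small-subunit median was 0.17 without flat probe sets (5 genes left) and 0.068 to 0.083 with 1 array left out. Signs turned after quantile normalization for Mrps18c (-0.027), after median centring for Mrps18a (0.0051), and with a muscle marker covariate for Mrps18a (0.022) and Mrps18c (-0.012). Without controls 1 and 4 they turned for Mrpl47 (-0.11), Mrpl57 (-0.069), Mrps25 (-0.052), Mrps18b (-0.062) and Mrps30 (-0.028), and without control 3 and GRBATKO 4 for Mrps33 (0.029). With 1 array left out, Mrpl30 ran from -0.088 to 0.0055, Mrpl47 from -0.053 to 0.22, Mrpl57 from -0.0015 to 0.23, Mrps25 from -0.065 to 0.12, Mrps18a from -0.040 to 0.044, Mrps18b from -0.019 to 0.097, Mrps18c from -0.020 to 0.024 and Mrps33 from -0.74 to -0.11. The cause of these turns was not tested. With no detection calls, signal over background is unknown.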
